A study of Mus musculus with 2 samples.

Results

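Interferon-stimulated genes are switched on when a cell senses type I interferon, and 9 of them were followed here cell by cell in the ependymal lineage of the injured mouse spinal cord. The 9 genes, Ifit1, Ifit3, Oasl2, Isg15, Bst2, Ifitm3, Ifi27, Irf7 and Stat2, were taken by name from the 17189 genes listed for the EpA cells, the subpopulation of ependymal cells that the study's authors set apart. All 9 were found. The injured group was 1 library from day 3 after an incision of the dorsal funiculus, and the uninjured group was 1 library from uninjured cord. Both came from C57BL/6J mice of at least 12 weeks that carried Troy-CreERT2 on 1 allele and a Rosa26-tdTomato reporter, so the control carried the same alleles as the injured group. Troy is another name of Tnfrsf19, and the reporter marks cells in which that promoter had driven the recombinase, together with their offspring. Cells of a 5 mm segment around the lesion, or of the matching level, were sorted on tdTomato and sequenced with a 10x Genomics 3′ kit. The number of animals behind each library is not given in the sources used here. With 1 library per group no difference between groups has a replicate check, and every interval below is a 95% interval that covers counting error only.

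Type I interferon binds the receptor pair Ifnar1 and Ifnar2, whose kinases phosphorylate Stat2. Stat2 and Irf9 are part of a complex that binds the interferon-stimulated response element in the promoters of its target genes. The targets include antiviral proteins that bind viral RNA, hold back budding virus or block its entry, and also Stat2 and Irf7 themselves, through which the response can strengthen itself. In the nervous system such genes are known to be expressed by glia and by vessel cells during infection, ageing and injury.

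Promoter windows from 250 bases before to 50 bases after the annotated start (RefSeq, GRCm38.p6) were at hand for 8 of the 9 genes, and Ifi27 had no entry. The core of the response element, GAAA, any 2 bases and GAAA again, stood on either strand in the windows of 6 of these 8 genes, and in 3.44% of all 32851 windows in the table. The 6 genes were Ifit1, Ifit3, Isg15, Bst2, Ifitm3 and Stat2, with 12 matches in all, some of which overlap. Oasl2 and Irf7 had none in this window. The following stretches show 1 match of each gene, and 2 of Ifit1 and Ifit3, on the strand that carries the letters, with the match in capitals, since it is the sequence that the 6 promoters share.
Ifit1: actgagactgGAAAGTGAAActgaagcctg
Ifit1: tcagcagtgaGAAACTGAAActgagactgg
Ifit3: accagaagagGAAAGTGAAActtaccactg
Ifit3: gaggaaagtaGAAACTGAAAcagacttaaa
Isg15: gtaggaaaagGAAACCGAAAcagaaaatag
Bst2: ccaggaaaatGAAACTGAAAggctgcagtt
Ifitm3: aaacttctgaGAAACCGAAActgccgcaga
Stat2: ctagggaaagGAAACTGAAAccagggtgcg
In genome order of this build the Ifit1 stretches lie at chr19:34640775-34640804 and chr19:34640794-34640823, minus strand. Those of Ifit3 lie at chr19:34583363-34583392 and chr19:34583397-34583426, also on the minus strand. The Isg15 stretch is at chr4:156200871-156200900, the Bst2 stretch at chr8:71537577-71537606, the Ifitm3 stretch at chr7:141010706-141010735 and the Stat2 stretch at chr10:128270266-128270295, all on the minus strand. The Ifit1 and Ifit3 matches lay 85 to 156 bases before the start, counted from the end of the match farthest from it. The Isg15, Bst2 and Stat2 matches shown lay 72, 124 and 222 bases before it, whereas both Ifitm3 matches lay after the start, within the transcribed part. The core of the gamma-activated site, TTCNNNGAA, was found in the Bst2 and Ifitm3 windows and in 8.30% of all windows, and in both genes it overlapped a match of the first motif. A match describes letters and is no evidence of binding.

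The genes themselves, by the GENCODE M21 annotation of the same genome build, are all protein-coding. Ifit3 (chr19:34583531-34588731) and Ifit1 (chr19:34640871-34650009) are near neighbours, as are Ifitm3 (chr7:141009586-141010770) and Irf7 (chr7:141262706-141266481). Oasl2 lies at chr5:114896936-114912234, Isg15 at chr4:156199424-156200818, Bst2 at chr8:71534255-71537456, Ifi27 at chr12:103434211-103440239 and Stat2 at chr10:128270559-128292849. Ifit3 has a close copy, Ifit3b, and Ifitm3 belongs to a family with Ifitm1 and Ifitm2, so the split of reads between these copies is uncertain.

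The EpA table held 1004 injured and 555 uninjured cells with 25296289 and 7689179 unique molecular identifiers (UMIs, 1 per captured RNA molecule), at medians of 20158 and 11387 UMIs a cell. Mitochondrially encoded genes took a median of 6.77% of UMIs in injured and 11.2% in uninjured EpA cells. All 12 ependymal markers were detected in both libraries. Their summed level was 19293 CPM (UMIs per 1000000 UMIs of the cell group in that library) in injured and 13196 CPM in uninjured cells. The highest single marker supplied 14246 CPM of it in injured and 2214 CPM in uninjured cells. The higher injured sum therefore does not show that the markers as a set were higher. A further 224 injured and 156 uninjured cells had been kept by the authors but not placed in EpA. The libraries shared 18 barcode sequences, 2 of them in EpA cells of both.

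Ifit1, Ifit3 and Oasl2, which act on viral RNA or are related to its sensors, were higher in injured EpA cells. Ifit1, which binds viral RNA lacking the cap methylation of the host, had 288 UMIs or 11.4 CPM in injured and 29 UMIs or 3.77 CPM in uninjured cells, a ratio of 3.02 (2.06 to 4.59). Ifit3, its partner in the same RNA-binding complex, had 408 UMIs or 16.1 CPM in injured and 48 UMIs or 6.24 CPM in uninjured cells, a ratio of 2.58 (1.91 to 3.56). Oasl2, a relative of the oligoadenylate synthetases that sense double-stranded RNA, had 330 UMIs or 13.1 CPM in injured and 28 UMIs or 3.64 CPM in uninjured cells, a ratio of 3.58. For these 3 genes the counting intervals of the libraries did not overlap.

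The ubiquitin-like modifier and the membrane proteins differed more from each other. Isg15, a small protein that is attached to other proteins during the response, had 333 UMIs or 13.2 CPM in injured and 12 UMIs or 1.56 CPM in uninjured cells. Bst2, or tetherin, which holds budding virus at the cell surface, had 1881 UMIs or 74.4 CPM in injured and 83 UMIs or 10.8 CPM in uninjured cells. On the log2 scale Isg15 differed by 3.02 (2.25 to 4.04) and Bst2 by 2.78 (2.47 to 3.12), the widest differences among the 9. Ifi27, a mitochondrial protein that responds strongly to interferon alpha, had 1389 UMIs or 54.9 CPM in injured and 151 UMIs or 19.6 CPM in uninjured cells, a ratio of 2.80 (2.36 to 3.33). Ifitm3, which blocks the entry of virus from endosomes, was abundant in both libraries, with 91603 UMIs or 3621 CPM in injured and 20241 UMIs or 2632 CPM in uninjured cells. Its log2 ratio was 0.46 (0.44 to 0.48), less than 2-fold.

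The transcription factors were sparse. Irf7, which drives interferon genes, had 259 UMIs or 10.2 CPM in injured and 14 UMIs or 1.82 CPM in uninjured cells, a ratio of 5.62 (3.29 to 10.4). Stat2, a subunit of the interferon-activated complex, had 133 UMIs or 5.26 CPM in injured and 25 UMIs or 3.25 CPM in uninjured cells. Its log2 ratio was 0.67 (0.07 to 1.37), and its mean lay under the minimum of 5 CPM that was set for counting a gene as measured.

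**Figure D1:**
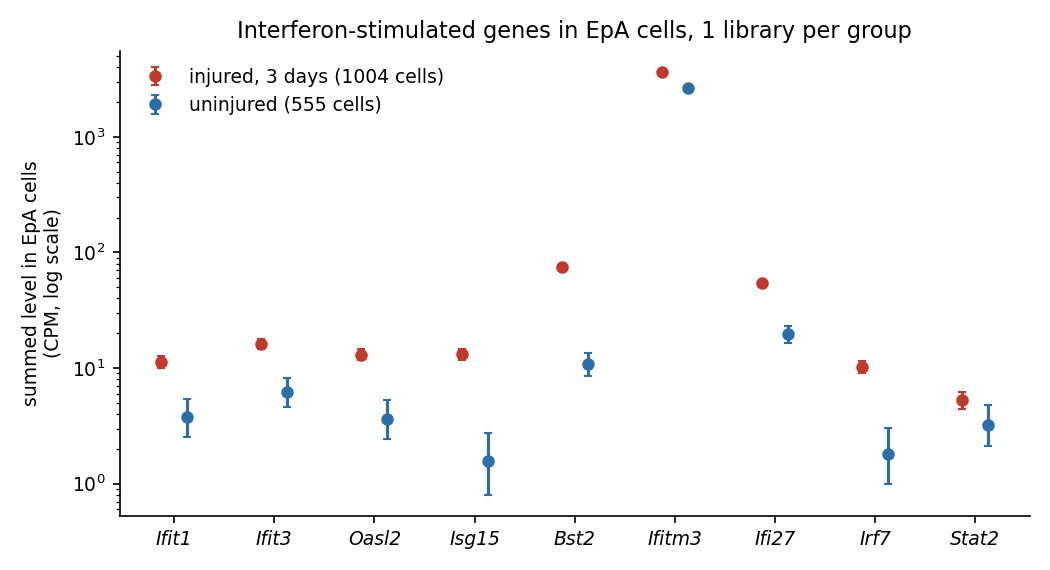
Summed level of each gene in EpA cells in CPM on a log scale, with injured cells in red to the left of uninjured cells in blue and bars for exact Poisson 95% intervals of 1 library each. Isg15 stood at 13.2 CPM in injured and 1.56 CPM in uninjured cells, while Ifitm3 stood at 3621 and 2632 CPM.

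Of the 8 measured genes, 7 were at least 2-fold higher in injured EpA cells and none was lower. Among all 10527 measured genes 10.9% passed 2-fold upwards and 11.3% downwards. The 9 genes were chosen with earlier results of these data known, so the count beside this share is a description and no independent support. Ifit1, Oasl2, Isg15 and Irf7 were under 5 CPM in uninjured cells and reached the minimum mean only through the injured library. With no minimum the count was also 7, of all 9 genes. The median log2 ratio of the 8 was 1.69, against −0.03 over all measured genes. Ifitm3 took 94.8% of the UMIs of the 9 genes in injured and 98.1% in uninjured cells, so the sum of all 9, at 3820 CPM in injured and 2683 CPM in uninjured cells, mainly follows it. The other 8 together came to 198 CPM in injured and 50.7 CPM in uninjured cells, a ratio of 3.91 (3.53 to 4.35). In cells with under 10% mitochondrially encoded UMIs, 824 injured and 180 uninjured, the count of genes at least 2-fold higher was 4, since Ifit1, Ifit3 and Oasl2 had log2 ratios of 0.31, 0.60 and 0.80. A single uninjured cell among those 180 held 15 of the 22 Ifit1 UMIs there, and 1 injured cell among the 824 held 53 of 236. Leaving out both, a choice made after seeing the data, gave log2 ratios of 1.51, 1.16 and 1.30 and a count of 7. No share over all genes is given for the count with no minimum or for those in cells under 10%.

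Markers of some other cell types also differed between injured and uninjured EpA cells. Pericyte or smooth muscle markers summed to 130 CPM in injured and 28.6 CPM in uninjured cells, with 119.8 and 27.8 CPM of it in 1 gene each, and 4 of the 8 found were at 0 in uninjured cells. At least 2 of these markers were in 47 injured and 1 uninjured cells. Oligodendrocyte progenitor markers summed to 32.8 CPM in injured and 0.52 CPM in uninjured cells, with Sox10 at 0 in both. Neuron markers summed to 640.3 CPM in injured and 157 CPM in uninjured cells, with 635 and 152 CPM in 1 gene each. Fibroblast markers summed to 39.2 and 30.4 CPM, with Lum and Dpt at 0 in both, and at least 2 of them were in 67 injured and 4 uninjured cells. Neutrophil markers summed to 0.0791 CPM in injured and 7.54 CPM in uninjured cells. The part of these differences in the result was not tested.

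Most of the 9 transcripts were held by few cells. As a yardstick, the number of cells with a UMI was set beside the number expected if a gene's UMIs were shared out by the cells' totals. Ifit1 was found in 80 injured EpA cells where 234 were expected, and 9 cells held 50% of its UMIs, the top cell 53 of them. Ifit3 was found in 102 cells where 307 were expected, 6 cells held 50% of its UMIs, and 1 cell alone held 135 UMIs or 33.1%. Isg15 was found in 98 cells where 263 were expected, with 50% in 15 cells. These 3 genes were the most concentrated of the 9.

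Bst2 and Ifi27, which had more UMIs, were found in more cells. Bst2 was found in 378 injured EpA cells where 734 were expected, with 50% of UMIs in 35 cells. Ifi27 was found in 408 where 649 were expected (50% in 70 cells). Irf7 was found in 118 cells where 215 were expected, and Oasl2 in 149 where 261 were expected. Cells found over cells expected were 0.515 for Bst2, 0.550 for Irf7, 0.571 for Oasl2 and 0.629 for Ifi27. By this yardstick Bst2 was the most concentrated of these 4. Stat2, in 107 cells where 120 were expected and never above 5 UMIs in a cell, lay close to the yardstick. Ifitm3 was detected in 999 of 1004 injured and 553 of 555 uninjured cells, and 243 injured cells were needed to reach 50% of its UMIs. It was thus a transcript of nearly every EpA cell in either library, unlike the others.

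**Figure D2:**
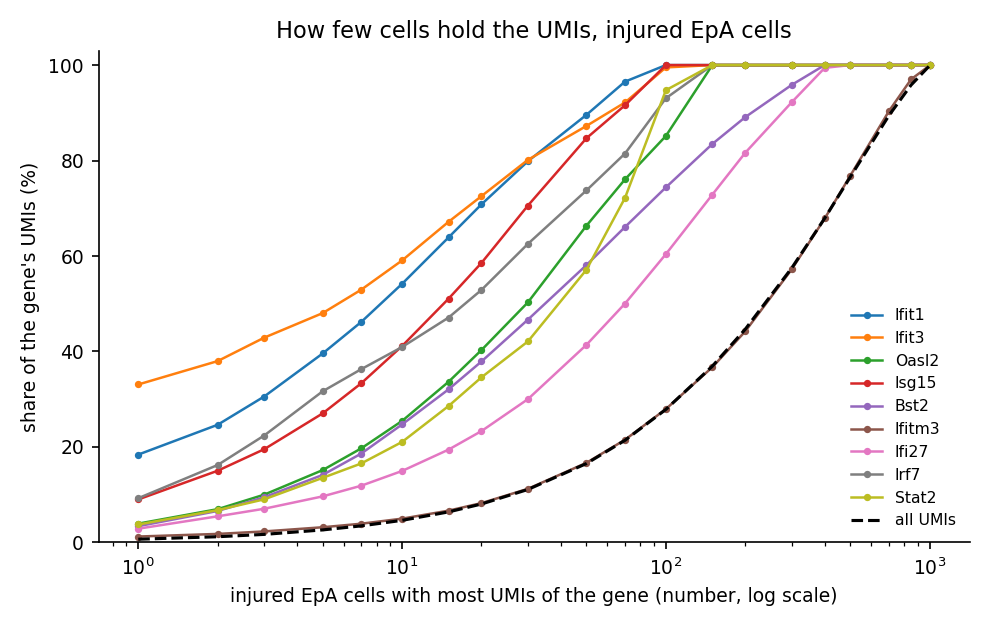
Share of each gene's UMIs held by the injured EpA cells with most of them, against the number of cells on a log scale, with all UMIs as the dashed line. Ifit3 starts at 33.1% in 1 cell, whereas the Ifitm3 line lies near that of all UMIs. Cells are ranked anew for each line.

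In uninjured EpA cells most of the genes were found in few cells, but only some were concentrated by the same yardstick. Ifit1 was found in 11, Isg15 in 5, Irf7 in 12, Bst2 in 59 and Ifi27 in 99 of 555 cells. Cells found over cells expected were 0.392 for Ifit1 and 0.422 for Isg15. They were 0.616 for Ifit3, 0.664 for Oasl2, 0.772 for Ifi27, 0.780 for Bst2, 0.864 for Stat2 and 0.871 for Irf7, nearer to what the totals alone give. A single cell held 15 of the 29 Ifit1 and 16 of the 48 Ifit3 UMIs, with 6 Oasl2 and 3 Stat2 UMIs and no Isg15, Bst2 or Irf7. Another held 8 of the 12 Isg15 UMIs. Leaving out, for each gene, the 1 cell of each library with most of its UMIs gave log2 ratios of 2.30 for Ifit1, 1.35 for Ifit3 and 4.36 for Isg15. Without the 1% of cells of each library with most UMIs of the 9 genes, Ifit3 was under 2-fold, at a log2 ratio of 0.61.

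To count cells that express several of the genes at equal depth, each cell was thinned at random to 5000 UMIs, which left out 32 injured and 16 uninjured cells. At least 3 of the 9 genes were then detected in 115 of 972 injured cells or 11.8% (9.87 to 14.0), and in 7 of 539 uninjured cells or 1.30% (0.524 to 2.66). Unthinned, the shares were 36.4% in injured and 8.29% in uninjured cells. Since Ifitm3 was in nearly all cells, the count was repeated with the other 8 genes, a choice made after seeing the data. At least 3 of these were found in 46 injured cells or 4.73% (3.49 to 6.26) and in 2 uninjured cells or 0.371%. A further 69 injured and 5 uninjured cells lay just under that limit with 2 genes. At the other end, 615 injured or 63.3% and 432 uninjured or 80.1% showed none of the 8. No cell type here is known to lack these genes, so background from free RNA was read in a cluster of 21 injured cells outside EpA led by Cd74 and Cd79a. At 2000 UMIs a cell, 2 of those 21 cells or 9.52% (1.18 to 30.4) had any of the 8 genes. In EpA, 184 of 992 injured cells or 18.5% (16.2 to 21.1) and 51 of 547 uninjured cells or 9.32% had any. The interval of the 21 cells spans these EpA shares, and such cells may express the genes themselves. The shares therefore cannot tell whether EpA cells differ from background. By level, the 8 genes summed to 99.4 CPM (51.3 to 173.6) in that cluster, below the 198.5 CPM (193.0 to 204.1) of injured EpA. Ifitm3 reached only 33.1 CPM there, while injured EpA had 3621 CPM. The 21 cells came from the injured library and give no reading for uninjured EpA. The part of free RNA was not tested.

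**Figure D3:**
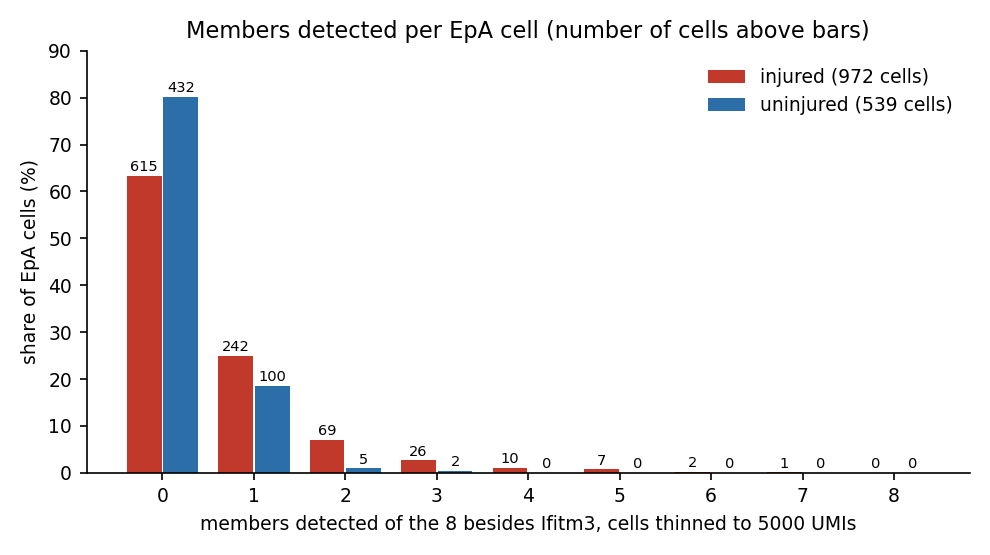
Share of EpA cells by the number of genes detected among the 8 besides Ifitm3, at 5000 UMIs a cell, with injured in red to the left of uninjured in blue. Beyond 2 genes there were 46 injured and 2 uninjured cells.

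The cells with the highest levels of the 8 genes, ranked by CPM within a cell, were not alike. The highest injured cell, with 22152 UMIs in all, had 53 Ifit1, 135 Ifit3, 39 Bst2, 15 Irf7, 9 Oasl2 and 5 Stat2 UMIs, and neither Isg15 nor Ifi27. The second had 20 Ifit3, 14 Isg15 and 2 Ifit1 UMIs among 10364. The sixth by this level had 64 Bst2 and 18 Irf7 UMIs with no Ifit1 and 1 Ifit3, and the seventh and eighth likewise had 44 Bst2 UMIs each and no Ifit1. These 3 Bst2-rich cells expressed at least 2 of 10 genes of dividing cells, which none of the first 5 did. Over the 972 injured EpA cells at 5000 UMIs, Pearson's r between Ifit1 and Ifit3 was 0.83, but without the highest cell it was 0.35. Without that cell the closest pair was Ifit3 and Isg15 at 0.73, and Bst2 and Irf7 stood at 0.31. Of 32 cells with Ifit1 and 35 with Ifit3, 16 had both, which is 50% of the cells with Ifit1 and 45.7% of those with Ifit3.

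The 46 injured cells with at least 3 of the 8 genes were set beside the 926 with fewer, for genes that were not used to choose them. The list of other interferon-stimulated genes summed to 1308 CPM in the 46 cells against 518 CPM in the 926. The highest injured cell named above held 296 of its 1643 UMIs in the 46 cells. The values of this comparison were not recomputed without that cell. Of its 25 genes with at least 5 CPM, 17 were at least 2-fold higher in the 46 cells and none was 2-fold lower, while of 10452 genes at that level 1.03% passed 2-fold upwards and 1.39% downwards. Ifit3b had 128 CPM in the 46 cells against 3.84 CPM in the others, though its reads may be shared with Ifit3, one of the choosing genes. Ifi44, a cytoplasmic interferon-induced protein, had 80.4 and 4.34 CPM, and Usp18, which cleaves Isg15 from proteins and dampens the receptor, had 54.9 and 4.22 CPM. Rsad2, or viperin, had 26.3 CPM in the 46 cells against 4.18 CPM in the 926.

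Irf9 and 3 genes of class I antigen presentation, chosen after their values were seen, were also higher in the 46 cells. Irf9 was at 62.1 CPM in the 46 cells against 25.5 CPM in the 926. B2m, the light chain of class I molecules, was at 439 and 175 CPM, and the heavy chains H2-K1 and H2-D1 were at 362 and 131 CPM and at 459 and 172 CPM. Not every gene known to respond to interferon followed: Ifit2 was at 6.37 and 5.43 CPM, Irf1 at 7.96 and 7.56 CPM, Ifitm2 at 252 and 220 CPM, and Ifitm1 at 28.7 and 42.9 CPM. Ifitm3, which was not used for the choice, stood at 6600 CPM in the 46 cells against 3468 CPM in the 926. The groups had median depths of 22964 and 20382 UMIs. Microglia markers summed to 50.2 and 44.5 CPM, endothelial markers to 22.3 and 25.4 CPM, pericyte or smooth muscle markers to 154 and 129 CPM and fibroblast markers to 58.9 and 38 CPM, and their part in the result was not tested. Crym was at 1172 and 1116 CPM and Gfap at 588 and 559 CPM.

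**Figure D4:**
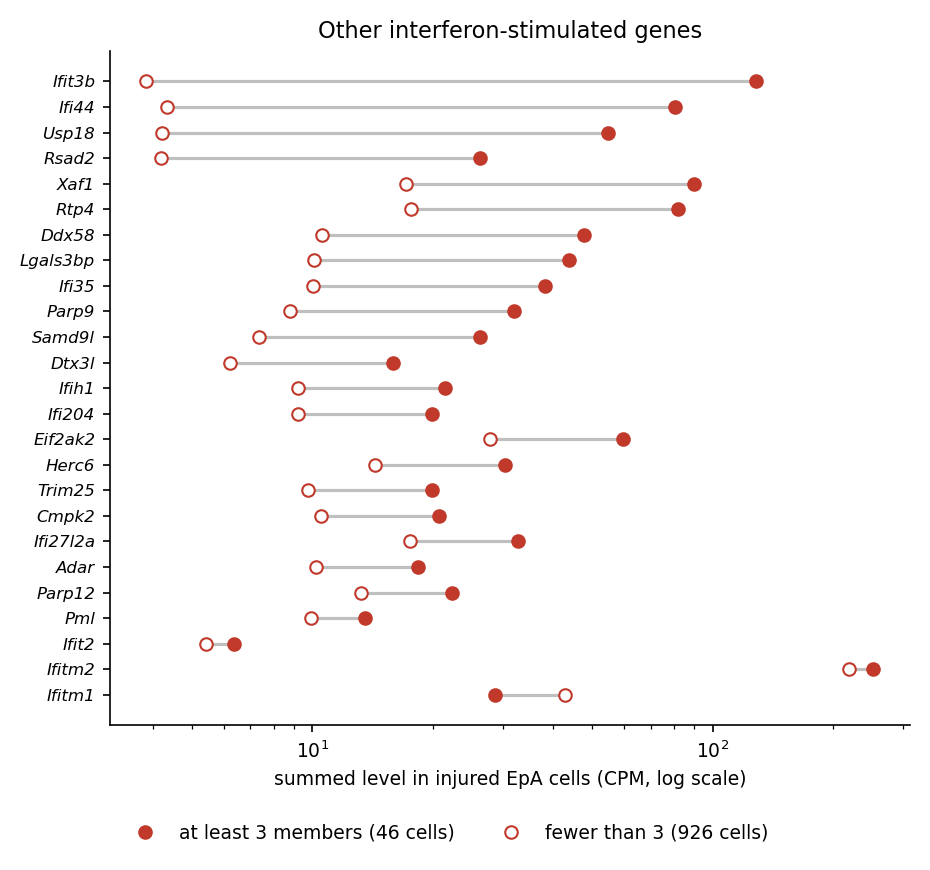
Level in CPM on a log scale of the 25 other interferon-stimulated genes with at least 5 CPM in injured EpA cells, in the 46 cells with at least 3 of the 8 genes (filled) and the 926 with fewer (open). Ifit3b, Ifi44 and Usp18 lie farthest apart, while Ifitm1 is the only one lower in the 46 cells.

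Injured EpA cells were split by whether their cilium transcripts, at 2000 UMIs a cell, reached the 5th percentile of uninjured EpA cells, which was 1.25% of UMIs. At least 3 of the 9 genes were found in 13.7% (11 to 16.8) of 577 cells below that range and in 9.11% (6.47 to 12.4) of 395 cells within it, and the intervals overlap. The share with at least 3 of the 8 genes was 4.68% of 577 cells below that range and 4.81% of 395 cells within it. Bst2 was at 88.7 CPM below the range and 27.8 CPM within it, whereas Ifit1 was at 9.56 CPM below and 17.4 CPM within, and Oasl2 at 10.5 and 21.3 CPM. Ifitm3 stood at 3246 CPM below the range and 4850 CPM within it. Dividing cells, 116 with at least 2 of 10 mitotic genes and all below the range, had 121 CPM of Bst2, 20.7 CPM of Isg15 and 16.6 CPM of Irf7, but 3.6 CPM of Ifit1 and 1803 CPM of Ifitm3. Clusters were made without any interferon list gene. Among EpA clusters injured Ifitm3 was highest, at 6205 CPM, in the cluster led by Gfap. It was lowest, at 1535 CPM, in the cluster led by S100a9 and S100a8. The 10 leading genes of that cluster also held the mitotic genes Pbk, Prc1 and Cdc20, while S100a9 had no UMI in injured EpA cells. In injured cells Bst2 was at 109 CPM in the cluster led by S100a9, 87.8 CPM in that led by Crym and 16.8 CPM in that led by Btg2 and Fos. The dividing cells were the deepest, at a median of 51267 UMIs against 11498 UMIs in the cells within the cilium range, and the levels above are scaled by totals.

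Beyond the 9 genes, the wider interferon pathway in EpA cells differed less between the libraries. Of 47 other interferon-stimulated genes listed, 44 were in the tables and 21 were measured, of which 6 passed 2-fold upwards in injured cells and none downwards, with a median log2 ratio of 0.49. The highest were Ifi27l2a, with 18.3 CPM in injured cells and no UMI in uninjured cells, or at least 46.8-fold higher taking 3 counts in the uninjured sum as its floor, and Lgals3bp, a secreted glycoprotein, with 11.8 and 1.04 CPM. Ifitm2 had 221 CPM in injured and 65.3 CPM in uninjured cells, and Ifit3b 10.1 and 4.68 CPM. Usp18 was at 6.72 CPM in injured and 1.30 CPM in uninjured cells and Ifit2 at 5.46 and 2.60 CPM, both under the mean of 5 CPM. Some measured genes of the list were lower in injured cells by less than 2-fold. Cmpk2 was at 11.2 CPM in injured and 19.2 CPM in uninjured cells, Ddx58 at 12.4 and 17.7 CPM and Rsad2 at 5.26 and 7.93 CPM. Their log2 ratios were −0.79 (−1.07 to −0.49), −0.52 (−0.81 to −0.21) and −0.60 (−1.04 to −0.13).

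Of 7 measured receptors and kinases none passed 2-fold in either direction (median 0.18). Ifnar1 was at 22.1 CPM in injured and 20.4 CPM in uninjured cells, and Ifnar2 at 34.3 and 24.7 CPM. The gamma receptor subunit Ifngr1 was at 38.8 and 67.1 CPM, Ifngr2 at 14.1 and 7.93 CPM, and the kinase Jak2 at 26.4 and 30.2 CPM. Among the STAT and IRF factors Stat3, a factor of cytokine signalling, was at least 2-fold higher, with 88.2 CPM in injured and 31.9 CPM in uninjured cells. Irf9, a DNA-binding partner of Stat2, was at 27.3 CPM in injured and 14.1 CPM in uninjured cells. Irf1, Irf2 and Irf3 had log2 ratios of −0.10, −0.40 and −0.01.

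Of 5 measured genes of nucleic acid sensing 1 was at least 2-fold lower, the kinase Ikbke, with 4.27 CPM in injured and 10.4 CPM in uninjured cells. The RNA sensor Tlr3 had a log2 ratio of 0.51, the adaptor Myd88 0.84 and the kinase Tbk1 −0.21. None of 6 measured inhibitors passed 2-fold, and Socs3, a feedback inhibitor of cytokine receptors, was at 216 CPM in injured and 130 CPM in uninjured cells. Socs1 had a log2 ratio of −0.32, Pias1 of −0.74 and Irf2bp2 of −0.43. Of 6 measured gamma target genes the guanylate-binding proteins Gbp3, Gbp7 and Gbp2 were at least 2-fold higher, with log2 ratios of 2.68, 1.63 and 1.09, and none was 2-fold lower. Irgm2 was at 0.59. Among 10 interferon genes listed only Ifng was in the tables, with 0 UMIs in injured EpA cells, below a floor of 0.119 CPM that stands for 3 counts, and 6 UMIs in uninjured EpA cells.

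Outside EpA, the kept cells fell into clusters that were named from fixed markers. Microglia-like cells, 30 injured and 36 uninjured, had higher levels of several genes in the injured library. Bst2 was at 553 CPM in injured and 153 CPM in uninjured cells (ratio 3.61, 2.57 to 5.20), Isg15 at 93.5 and 16.6 CPM and Ifitm3 at 768 and 298 CPM. Of the 8 genes measured in this class 4 were at least 2-fold higher, against 14.6% of 8999 measured genes, and none was 2-fold lower, against 28.4%. Among these 4, Oasl2 and Isg15 had 1 and 2 UMIs in their highest uninjured cell and 0 and 2 UMIs in the other uninjured cells. Ifi27 was lower in injured microglia-like cells, at 59.6 CPM against 108 CPM in uninjured ones. Median depths in this class were 21186 UMIs in injured and 7172 UMIs in uninjured cells. At a finer clustering 29 of the injured cells fell in a group led by Lyz2 and Arg1 with 12 uninjured cells, and 24 uninjured cells in a group led by P2ry12 and Cx3cr1. The libraries thus held unlike mixes of these groups, and the class values cannot tell injury apart from that mix. Within the first of these groups Ifitm3 was lower in injured cells, at 777 CPM against 1365 CPM, while Bst2 was at 559 CPM against 41.4 CPM. The uninjured values of that group rest on few UMIs. All 36 uninjured microglia-like cells together held 72 Ifitm3 UMIs, 32 of them in the highest cell, and 37 Bst2 UMIs. The direction of the Ifitm3 difference within the group is therefore uncertain.

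Fibroblast-like cells, 35 injured and 30 uninjured, had overlapping intervals for most of the genes. Their median depths were 19525 UMIs in injured and 1132 UMIs in uninjured cells, which held 174860 UMIs in all. The overlap therefore does not show that the levels were alike. Ifitm3 was at 1790 CPM in injured and 1098 CPM in uninjured cells, Isg15 at 63.5 and 45.7 CPM, and Bst2 at 75.7 and 126 CPM. The 8 genes besides Ifitm3 summed to 560 and 457 CPM, and to 590 and 410 CPM without the 9 cells of each library whose barcode was also in the other. Ifit1 and Irf7 passed 2-fold, against 11.6% of 9880 measured genes, on 1 and 0 uninjured UMIs.

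In endothelial-like cells the difference ran the other way. The cluster led by haemoglobin genes, Slco1a4 and Cldn5 held 34 injured and 46 uninjured cells with all 12 endothelial markers detected and median depths of 9567 and 9134 UMIs. Ifit1 was at 4.15 CPM in injured and 110 CPM in uninjured cells, on 2 and 56 UMIs, of which 1 uninjured cell held 26. Ifit3 was at 12.5 and 86.7 CPM, Oasl2 at 31.2 and 78.8 CPM, Isg15 at 62.3 and 234 CPM, and Bst2 at 143 and 319 CPM. All 9 genes were lower in injured cells, 6 of them at least 2-fold, against 10.8% of 9704 measured genes; 8.79% were at least 2-fold higher. The intervals of the ratio included 1 for Ifi27 and Irf7. Without the highest cell of each library for each gene the log2 ratios stayed below 0, at −4.32 for Ifit1 and −1.77 for Isg15.

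Several of the genes were seen together in more of that cluster's uninjured cells. At least 3 of the 8 genes at 5000 UMIs a cell were found in 4 of 25 injured cells or 16% (4.54 to 36.1) and in 18 of 35 uninjured cells or 51.4% (34.0 to 68.6). None of these cells had a barcode found in both libraries. A second endothelial-like cluster, led by Fam167b and Plvap, held 81 injured and 5 uninjured cells and gives no comparison. Its injured cells had 154 CPM of Bst2, 40.4 CPM of Isg15 and 1555 CPM of Ifitm3, with at least 3 of the 8 genes in 3 of 72 cells. The 6 injured astrocyte-like cells had 407 CPM of Ifitm3 and 6 Isg15 UMIs, and the 30 uninjured ones had 85.4 CPM of Ifitm3 and no UMI of Ifit1, Oasl2 or Isg15. In EpA cells all 12 microglia markers were detected in both libraries, as were all 12 endothelial markers save Tek, which had no UMI in uninjured cells. Microglia markers there summed to 44.8 CPM in injured and 49.5 CPM in uninjured EpA cells and endothelial markers to 25.3 and 28.9 CPM, against 27932 and 50229 CPM in microglia-like cells and 12531 and 15423 CPM in the first endothelial-like cluster.

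**Figure D5:**
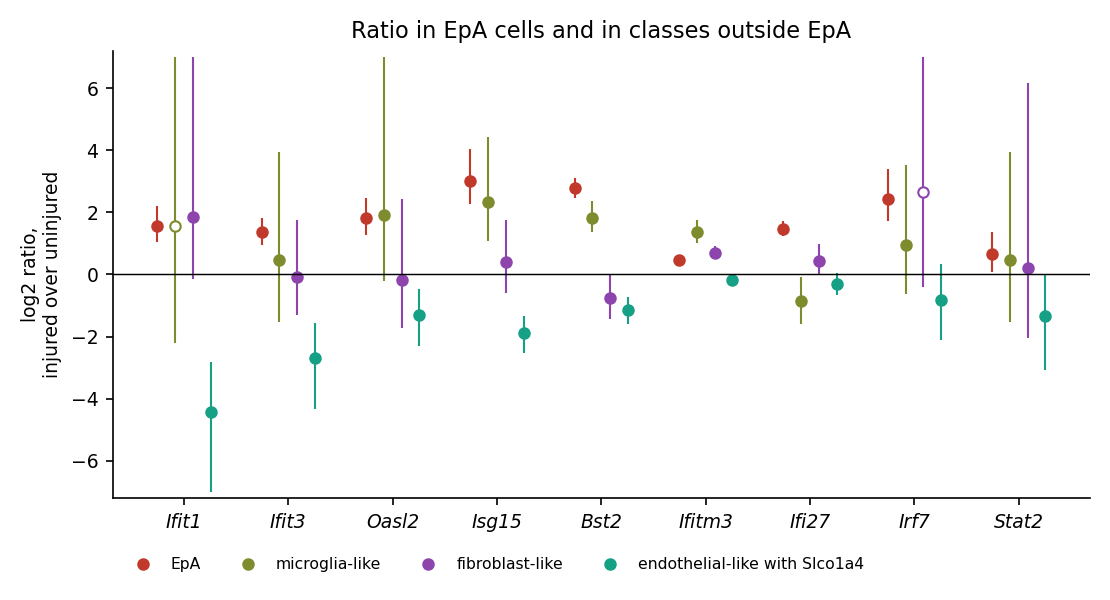
Log2 ratio of injured over uninjured for each gene in EpA cells and in 3 classes outside EpA, with lines for exact 95% intervals (cut at the frame) and open points where 1 library had no UMI. In endothelial-like cells every point lies below 0, at −4.42 for Ifit1, while all 9 EpA points lie above 0.

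Genes whose levels were most like the sum of the 9 over 18 sums by library and cluster were Eid1 and Nfe2l1, each with Pearson's r of 0.94, then Gbp2, Kitl, 2900026A02Rik and Nsfl1c, down to 0.91. The sum follows Ifitm3, and without it the closest were Anxa3 at 0.90, then Tgm2, Pdia5, Trim47, Pla2g4a and Rsu1 at 0.88 or above. Over the 972 injured EpA cells the closest to the sum were Itm2b at 0.49, Fxyd1, Aldoc, Mt3, Mt1 and Serping1 at 0.34. Without Ifitm3 in the sum the closest included Gbp2 at 0.37, Usp25 at 0.24, B2m at 0.23, Ifitm3 itself and Cenpw at 0.17. The points share 2 libraries, and the correlations are descriptions.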

How the data were processed

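The deposited tables hold raw UMI counts per gene and cell, which the authors did not normalise, as whole numbers and unequal totals show. The submitters' processing notes name Cell Ranger 3.0.1, Seurat and the mm10 build, with no role for either tool. A table per library gave 1566 injured and 876 uninjured barcodes, and 2 tables gave the cells the authors kept and those they placed in EpA. A gene that a library's table does not list was taken as 0. Counts were summed by library and cell group and scaled to CPM, and log2 ratios used 0.5 added counts. Intervals are exact (Poisson, conditional binomial, Clopper-Pearson; scipy 1.17.1). A gene was measured at a mean of 5 CPM and called at 2-fold; no test was possible with 1 library per group. Kept cells were clustered with scanpy 1.11.5 (2000 variable genes, 20 components, 15 neighbours, Leiden resolution 0.5) without interferon list genes. No doublet caller was run and no cell was removed as a doublet. The TMM factors came from edgeR 4.0.16. The size rule was tested on simulated data. The 9 genes and all lists were chosen with earlier results of these data known. Cluster leaders, genes named beside the 46 cells and Cmpk2, Ddx58 and Rsad2 as lower genes were chosen after their values were seen. The other named genes were the 9, up to 4 measured genes with the largest absolute log2 ratio from each list, 8 fixed genes and the 6 most alike by each measure. Some genes that this rule names are not reported here. PCR and capture bias are outside the intervals.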

Additional observations from a re-analysis of the deposited data

Results flagged for a closer look

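In 8 cases a gene was higher in injured than in uninjured EpA cells but lower in injured cells of another class, with both counting intervals on opposite sides of 1. In the endothelial-like cluster led by haemoglobin genes and Slco1a4 the log2 ratios of injured over uninjured were −4.42 for Ifit1, −2.70 for Ifit3, −1.31 for Oasl2, −1.89 for Isg15, −1.15 for Bst2, −0.17 for Ifitm3 and −1.35 for Stat2. In microglia-like cells, whose finer groups were mixed differently in the 2 libraries, it was −0.86 for Ifi27. In EpA cells the log2 ratios of the same genes were 1.57, 1.36, 1.82, 3.02, 2.78, 0.46 and 0.67, and 1.48 for Ifi27. The differences between classes were not tested, since each group was 1 library.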

How the results depend on the processing

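No paired analysis was possible because each group had 1 library. Over 14 alternatives no gene changed direction in EpA cells: Bst2, Ifi27, Irf7 and Isg15 stayed at least 2-fold higher in 14, Ifit1 and Oasl2 in 13 and Ifit3 in 10, where its lowest log2 ratio was 0.60. Leaving out the 1% of cells with most UMIs of the 9 genes put Ifit3 at 0.61, and leaving out cells with microglia or endothelial markers put it at 0.87.

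The count of genes at least 2-fold higher was 4 in cells under 10% mitochondrially encoded UMIs, 2 at a minimum of 20 CPM and 4 at 3-fold. It was 5 without the 1% of cells with most UMIs of the 8 genes. Only Ifitm3 and Stat2 were under 2-fold there, and the minimum mean left out others. The count was 6 with every cell weighted alike, without cells with microglia or endothelial markers and without dividing cells. Leaving out the 1% of cells with most UMIs of the 9 genes also gave 6. The log2 ratio of the sum of all 9 was 0.58 with TMM scaling, 0.43 with totals without mitochondrially encoded genes, 0.74 with every cell weighted alike, 0.74 at 5000 UMIs a cell, 1.37 per cell unscaled, 0.54 in cells under 10% mitochondrially encoded UMIs, 0.62 without cells with microglia or endothelial markers, 0.49 without the 1% of cells with most UMIs of the 9 or of the 8 genes, 0.72 without dividing cells and 0.56 without the 2% deepest cells. Without Ifitm3 the sum was at 1.54 with cells weighted alike, 2.83 per cell unscaled and 1.62 in cells under 10% mitochondrially encoded UMIs. The median over the 9 genes was 2.37 at 5000 UMIs, 2.43 per cell unscaled and 0.80 in cells under 10%. Of the other interferon-stimulated genes 20 of 26 passed 2-fold per cell unscaled and 2 of 3 at 20 CPM. No share of all genes past the same limit is given for the counts in this paragraph, so they cannot be read against a background. The unscaled values hold the difference in depth, and a higher minimum leaves fewer genes; for the rest the cause was not tested, apart from the cells named in the results.

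The share of cells with at least 3 of the 9 genes in injured and uninjured EpA cells was 36.7% and 19.9% for at least 2 genes, 4.73% and 0.371% for at least 4 or for 3 of the 8 besides Ifitm3, 4.13% and 0.183% at 2000 UMIs, 22.3% and 4.99% at 10000 UMIs, and 36.4% and 8.29% unthinned. The alternatives that leave out the top cells by the 8 genes, each gene's highest cell, the highest cell of each library among those under 10%, or barcodes found in both libraries, and that with 3 of the 8 genes, were chosen after seeing the data. Depth limits the uninjured values, where Isg15 rests on 12 and Irf7 on 14 UMIs.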
